A study of Mus musculus with 6 samples.

Results

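Unannotated transcribed loci of the mouse testis are places where assembled RNA reads marked a transcript that the annotation used for the table does not contain. The deposited table of testis RNA held 44065 genes, of which 2970 were such loci. Members are the 2721 loci with at least 0.5 FPKM (reads scaled to the length of the gene and to the total of the library) in at least 3 of the 6 libraries. The other 249 loci did not pass. The level in the 6 libraries chose the members, so that they are expressed is not a result. A total of 2494 members passed in all 6 libraries. A further 8 passed through the 3 control libraries with no sedentary library, and 0 passed through the 3 sedentary libraries with no control library. Just inside the limit lay locus 241 (third-highest FPKM 0.510) and locus 2790 (0.512), and just outside lay locus 2668 (0.495) and locus 2021 (0.494). Loci are called here by their running number in the table.

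RNA depleted of ribosomal RNA came from whole testes of male C57BL/6 mice, aged 6 weeks at the start. One group had been kept sedentary for 10 weeks and the other was the control of the same length, with 3 libraries each. Per the labels these are biological replicates. A group given physical activity as compensation belongs to the design and was not analysed here. Recovered reads summed to between 34176662 and 38148228 per library in the sedentary group and between 28495596 and 37654913 in the control group. The totals implied by the FPKM scaling were others, at 33356449 to 37813015 in sedentary and 28495483 to 39204250 in control libraries. They lay below the recovered reads in each sedentary library and above them in control replicates 1 and 3. All 8 spermatid markers and all 9 spermatocyte markers of a fixed list passed the filter, as the label of testis requires. In whole tissue, fewer cells of a type and less RNA per cell cannot be told apart.

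The testis is known for transcribing an unusually large part of the genome, in spermatocytes and spermatids above all, and many long non-coding RNAs and young genes were first seen there. A common place for unannotated transcripts is the upstream side of an annotated gene, since many mammalian promoters with a CpG island fire in both directions. Assemblies also pick up transcripts from repeats, such as LINE-1 elements and endogenous retroviruses, which male germ cells hold in check with DNA methylation and piRNAs, and from gene families with many near-identical copies.

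Transcribed loci that sit head to head with an annotated gene can share its promoter region. The upstream sequences of 4 such genes are therefore shown here before any value. Whether the loci start within these windows, or share the promoter, was not tested. Each line gives the 250 bases before the most upstream listed start of the gene, 5′ to 3′ on the gene's strand, from RefSeq on GRCm38.p6, with CG dinucleotides in capitals. The windows are chr11:75531444-75531693 (plus strand) for Slc43a2, chr10:78351701-78351950 (minus strand) for Agpat3, chr15:9140320-9140569 (plus strand) for Lmbrd2 and chr7:73816504-73816753 (minus strand) for Gm10619. Slc43a2 and Gm10619 face loci that differed between the groups. Agpat3 and Lmbrd2 face the divergent loci with the highest levels for which an entry was at hand.
Slc43a2 promoter: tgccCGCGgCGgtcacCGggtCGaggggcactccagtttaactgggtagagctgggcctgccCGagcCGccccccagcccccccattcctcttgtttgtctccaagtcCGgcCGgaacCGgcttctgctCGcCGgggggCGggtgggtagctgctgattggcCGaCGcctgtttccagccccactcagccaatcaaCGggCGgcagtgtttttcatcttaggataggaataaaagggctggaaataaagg
Agpat3 promoter: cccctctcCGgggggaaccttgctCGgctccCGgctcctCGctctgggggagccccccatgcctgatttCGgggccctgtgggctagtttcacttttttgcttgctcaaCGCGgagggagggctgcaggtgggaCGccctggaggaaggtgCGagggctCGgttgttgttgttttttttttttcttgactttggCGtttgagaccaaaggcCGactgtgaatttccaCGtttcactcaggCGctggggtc
Lmbrd2 promoter: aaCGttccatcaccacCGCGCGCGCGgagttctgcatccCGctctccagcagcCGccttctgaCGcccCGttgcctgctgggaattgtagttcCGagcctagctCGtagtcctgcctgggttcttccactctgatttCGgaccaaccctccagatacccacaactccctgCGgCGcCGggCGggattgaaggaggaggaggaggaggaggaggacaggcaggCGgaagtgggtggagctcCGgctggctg
Gm10619 promoter: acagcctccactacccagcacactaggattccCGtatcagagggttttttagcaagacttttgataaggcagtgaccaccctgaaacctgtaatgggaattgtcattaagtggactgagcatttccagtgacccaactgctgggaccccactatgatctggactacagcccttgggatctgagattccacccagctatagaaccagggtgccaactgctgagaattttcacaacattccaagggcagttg
The windows hold 17 CG dinucleotides for Slc43a2, 14 for Agpat3 and 19 for Lmbrd2, against 1 for Gm10619. Windows chosen in the same way but not shown hold 6 for Arhgef2, which faces the called locus 1797, and 3 for 4933409G03Rik, which faces locus 1654. The median over all 27025 promoters of the RefSeq table was 6 per 250 bases. Coordinates of the loci themselves are given as the table holds them. Gene identifiers of the table carry the strain name C57BL6NJ. No genome of that strain was at hand, so no locus sequence is printed.

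Position relative to annotated genes was uneven at short range. Of the 2571 members on chromosomes, 304 had their nearest annotated gene head to head on the opposite strand within 250 bases, against 40 tail to tail, 19 with the gene downstream on the same strand and 15 with the gene upstream. Beyond 5000 bases the 4 orientations were close in number, with 143, 136, 144 and 149 loci at 5001 to 20000 bases. In all, 392 loci, or 14.4% of members, lay head to head within 1000 bases of a gene start and are called divergent here. Within 5000 bases, 124 loci lay downstream of a gene on its strand, 107 upstream of one, 136 tail to tail, and 88 head to head at more than 1000 bases. A further 1723 loci lay farther away, with a median gap of 15495 bases over all loci on chromosomes. Only 1 locus overlapped an annotated gene on the same strand and 0 overlapped one on the opposite strand. The rule by which the authors listed such loci is not given in the sources used here. The position counts therefore describe the loci listed, and not all unannotated transcription of the testis. Another 150 members lay on 123 unplaced scaffolds, on which the table has 0 annotated genes.

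**Figure D1:**
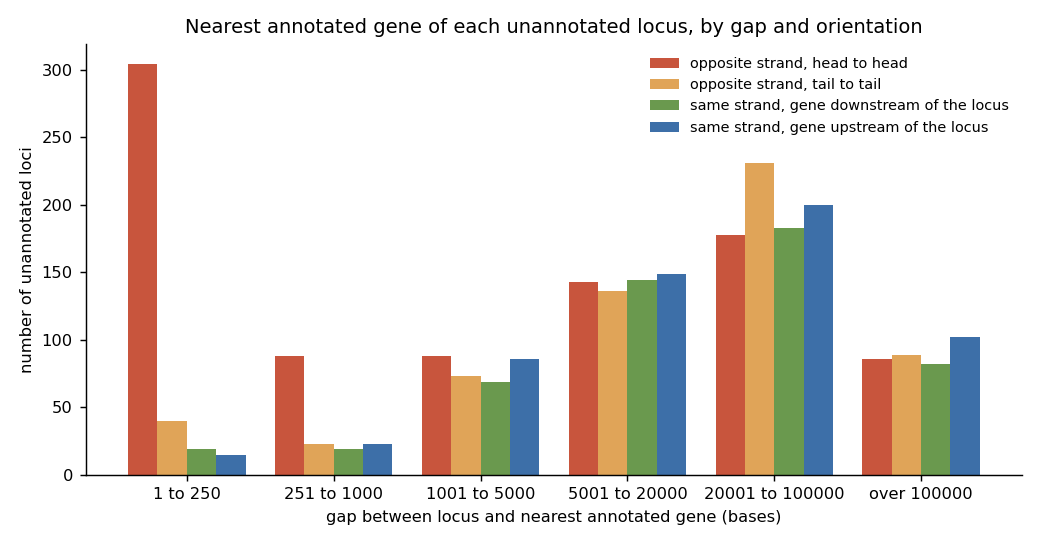
Number of unannotated loci (y axis) by the gap to their nearest annotated gene in bases (x axis), with 1 bar for each orientation of gene and locus. The head-to-head bar at 1 to 250 bases holds 304 loci, and the other 3 bars there hold 40, 19 and 15.

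Partners of the divergent loci were protein-coding genes in 329 of 392 cases, or 83.9%, and lincRNA genes (long intergenic non-coding RNAs) in 35. Protein-coding genes were the nearest gene of 58.1% of all members on chromosomes. Of 328 partner symbols, 237 matched an entry of the RefSeq promoter table. Those promoters held a median of 17 CG dinucleotides per 250 bases, and 77.2% held at least 10, against 38.2% of all promoters in the table. Protein-coding genes that were the nearest gene of a locus farther away had a median of 13, and 59.0% held at least 10 (468 matched symbols). The motif TATAAA, searched on both strands of the same window, was in 5.06% of the divergent partners' promoters, 9.19% of those nearest to farther loci and 12.98% of all promoters. These shares describe the windows and were not tested.

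Transcript models were short and mostly spliced. The median length of a member was 840 bases (range 200 to 18351), close to annotated lincRNA genes at 854.5 and antisense genes at 852.5, and below protein-coding genes at 3564. The genomic span was longer than the model in 2613 loci, or 96.0%, with a median span of 4797 bases. The other 108 loci were 1 block. The longest were locus 911 on chromosome 14 with 18351 bases, the LINE-1-like locus 1285 on chromosome 17 with 17579 and locus 1905 on chromosome 4 with 15978. The shortest were loci 27 and 29 on chromosome 1 with 200 bases each and locus 1604 on chromosome 2 with 201.

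Levels per length were low on average with a long upper tail. The mean over 6 libraries had a median of 2.05 FPKM over the members, against 2.76 for lincRNA, 2.15 for antisense and 5.90 for protein-coding genes. A total of 234 members, 8.60%, averaged at least 10 FPKM and 15 averaged at least 100. The members drew a median of 433 reads each over all 6 libraries, and the fewest was 32. The table gave a protein similarity for 498 members, or 18.3%, and a Pfam domain for 140.

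**Figure D2:**
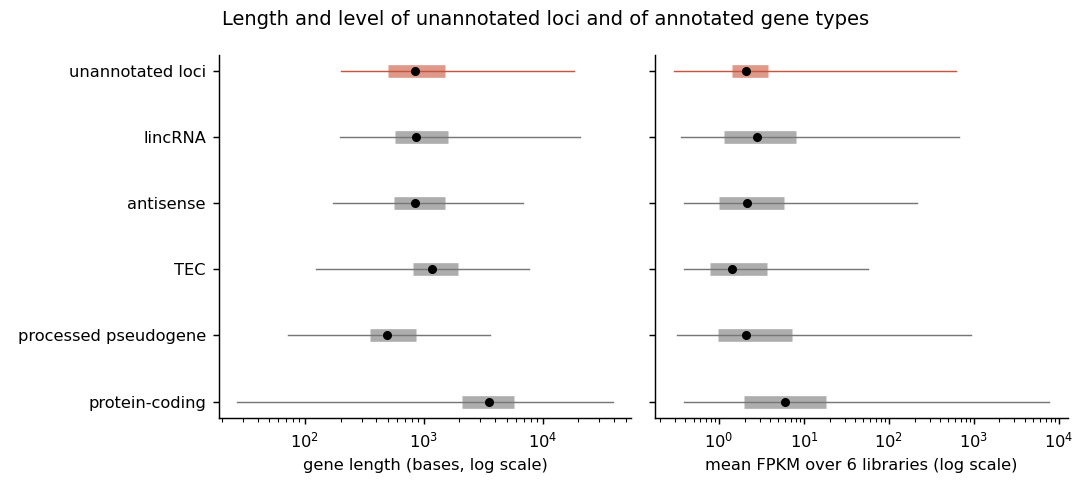
Gene length in bases (left) and mean FPKM over 6 libraries (right), both on log axes, for unannotated loci and annotated gene types that pass the same filter. Thin lines span the lowest to the highest value, thick bars the middle 50% and dots the median, which for the loci is 840 bases and 2.05 FPKM.

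The loci with the highest levels mostly carried a protein similarity. Locus 138 on the minus strand of chromosome 1, 58913928 to 58914875, resembled the Nod-like receptor family member NLRC3 and had 581, 762 and 619 FPKM in sedentary libraries, against 650, 495 and 604 in control libraries. These groups overlapped. Locus 588 on the minus strand of chromosome 12, 5678118 to 5682655, resembled proline-rich protein 30 and had 511, 440 and 473 FPKM in sedentary libraries, against 382, 447 and 368 in control libraries. Its groups overlapped too, in a single control value. Locus 2799, on an unplaced scaffold and with no protein similarity, had 304, 298 and 282 FPKM in sedentary libraries and 257, 283 and 256 in control libraries. Locus 1311 on chromosome 17, 4588931 to 4601359, resembled radial spoke head protein 3 homolog A, a part of the sperm tail axoneme, with 245, 269 and 240 FPKM in sedentary and 242, 252 and 214 in control libraries. Locus 1961 on chromosome 5, 32679391 to 32690588, resembled elongation factor 2, the translocation factor of translation, with 257, 219 and 252 FPKM in sedentary and 170, 228 and 176 in control libraries. None of the 5 passed either test of the contrast, with adjusted p between 0.0739 and 0.574 in limma's voom on reads. A locus that resembles an annotated gene can share reads with it, so its level is uncertain.

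Among the divergent loci, the highest level was that of locus 233 on the plus strand of chromosome 10, 81573668 to 81576431. It starts 410 bases from Agpat3, an acyltransferase of phospholipid synthesis whose CG-rich window is printed above. Locus 233 had 50.8, 54.5 and 54.0 FPKM in sedentary libraries, against 39.1, 47.4 and 39.3 in control libraries, and the groups did not overlap. Agpat3 itself had 74.6, 68.5 and 78.6 FPKM in sedentary libraries, against 58.7, 66.2 and 60.1 in control libraries. In voom, the adjusted p was 0.113 for locus 233 and 0.0922 for Agpat3. Locus 1039 on chromosome 15, 6406622 to 6435032, faces Lmbrd2 at 188 bases and resembled S-phase kinase-associated protein 2, an F-box subunit of a ubiquitin ligase. It averaged 48.4 ± 1.26 FPKM in sedentary libraries and 45.4 ± 2.38 in control libraries (SD, n = 3 each), an adjusted p of 0.546 in voom.

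Summed over the members, the loci took a slightly smaller share of the reads in the sedentary libraries. The share was 1.97%, 2.02% and 1.96% in sedentary libraries, against 2.08%, 2.07% and 2.13% in control libraries. The groups did not overlap, and the ratio of the group means was 0.949. An exact two-sided permutation test of 3 against 3 cannot go below 0.1.

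Contrasts of single loci were tested on FPKM and on reads. On log2(FPKM + 0.5), limma called 1 member at an adjusted p of 0.05, lower in sedentary testes, where the background was 5 calls among all 19201 tested genes, or 0.0260%. At an unadjusted p under 0.05 there were 544 of the 2721 members, 367 lower and 177 higher. Among all 19201 tested genes there were 3341 at that cut, 1394 lower and 1947 higher. On whole reads recovered from the table, limma's voom called 83 members lower and 4 higher, where 1.44% of all tested genes were called in either direction. Loci 241, 2161, 2675 and 2804 are among the lower calls and had passed the level filter through the control libraries alone, so for them the filter fixed the direction. Without the 8 members of that kind, 79 of 2713 were called lower and 4 higher. The lower calls are 3.05% of the members, against 1.12% of all tested genes, and the higher calls 0.147%, against 0.318%. Annotated types of like length gave fewer lower calls, with 4 of 950 lincRNA genes and 3 of 722 antisense genes, while TEC models (a provisional gene type) gave 6 of 187. The 3 values of one group lay wholly below the other in 14.6% of members (397 loci lower in sedentary; background 10.8%) and wholly above in 7.09% (193 loci; background 13.7%). The 397 include the 8 members that passed through the control libraries alone, whose groups cannot overlap. The median log2 fold change on FPKM was -0.03 over the members and 0.01 over all tested genes.

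The number of these calls depended on single libraries. Control replicate 3 was the highest of the 6 libraries in 71 of the 83 lower loci, or 85.5%, control replicate 1 in 9 and control replicate 2 in 3. The 83 were called for lower sedentary levels, and a sedentary library was the highest in 0 of them. Over all members, which were not chosen by a call, control replicate 3 was the highest in 23.8%, and over all tested genes in 21.8%. Those shares are therefore no reference for the 83. Without control replicate 3 voom called 25 loci lower and 3 higher, and the 28 include 25 of the 87. Without control replicate 1 or 2 the lower calls were 46 and 142, and without sedentary replicate 1, 2 or 3 they were 26, 96 and 14. The direction of the fold change held in all 6 of these fits for each of the 87 loci. Fits with fewer libraries also have less power.

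Called lower in every one of the 6 fits were 12 loci, numbers 213, 344, 351, 2073, 2121, 2131, 2367, 2457, 2494, 2695, 2809 and 2844, which were singled out after their values were seen. In each of them all sedentary values lay below all control values. Locus 2695, on the minus strand of chromosome 9 at 119802211 to 119827310, had 4.68, 6.03 and 5.01 FPKM in sedentary libraries, against 9.28, 10.3 and 12.7 in control libraries. Its log2 fold change was -1.02 ± 0.13 (SE, n = 3 per group; adjusted p = 0.00101, voom). Locus 344, on the minus strand of chromosome 10 at 89522956 to 89523702, had 9.88, 8.13 and 9.07 FPKM in sedentary libraries, against 19.5, 16.9 and 25.8 in control libraries (log2 fold change -1.19 ± 0.17, adjusted p = 0.00278). It is short, at 537 bases, and neither of these loci had a protein similarity or an annotated gene within 5000 bases. Locus 2073 on chromosome 5, 124610070 to 124624849, resembled formin-1, which nucleates actin filaments, and had 5.15, 3.56 and 4.38 FPKM in sedentary libraries, against 7.88, 8.05 and 12.9 in control libraries (adjusted p = 0.00265). Locus 2131 on chromosome 6, 105054027 to 105073808, had 1.89, 2.02 and 2.31 FPKM in sedentary libraries and 3.45, 2.99 and 4.18 in control libraries (adjusted p = 0.0071). Over these 4 loci the highest adjusted p with a library left out lay between 0.0254 and 0.0467.

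The locus called on FPKM was locus 2608, on chromosome 9 at 119940696 to 119941510 (plus strand). It is a single block of 815 bases and lies 15487 bases from the nearest annotated gene. It had 3.90, 4.15 and 4.27 FPKM in sedentary libraries, against 7.57, 7.49 and 7.81 in control libraries, well apart in either group. The log2 fold change was -0.82 ± 0.08 (SE, n = 3 per group) and the adjusted p 0.0276 in limma on FPKM. Voom gave an adjusted p of 0.0183, which reached up to 0.0768 and missed the threshold when replicate 1 or 3 of either group was left out. On FPKM it was not called with any library left out.

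Among the loci with the largest lower folds on reads, locus 2365 on chromosome 8, 18088727 to 18093606, had 0, 1.18 and 0 FPKM in sedentary libraries, against 2.15, 3.996 and 8.66 in control libraries, on 9 and 98 reads in all. Locus 2497 on chromosome 8, 72299905 to 72306253, had 0.955, 0.515 and 0.313 FPKM in sedentary libraries and 2.48, 2.80 and 7.20 in control libraries. Both were apart between the groups, and control replicate 3 was the highest in both. Near locus 2497, locus 2408 at 72219510 to 72219938 had 12.5, 6.55 and 5.61 FPKM in sedentary libraries, against 23.5, 19.2 and 37.3 in control libraries. Voom gave locus 2408 a log2 fold change of -1.74 ± 0.27 (SE, n = 3 per group; adjusted p = 0.00452), called in 5 of the 6 fits that leave out a library and lost without sedentary replicate 3 (adjusted p = 0.0768). Loci 2365 and 2497 had log2 fold changes of -4.40 and -2.71, and each lost its call in at least 2 of those fits.

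Higher calls on reads numbered 4. Locus 478, on the minus strand of chromosome 11 at 78696857 to 78698094, starts 181 bases from Slc43a2, a transporter of large neutral amino acids. It had 21.9, 18.8 and 20.2 FPKM in sedentary libraries, against 13.6, 13.7 and 12.8 in control libraries, with no overlap. The log2 fold change was 0.60 ± 0.12 (SE, n = 3 per group; adjusted p = 0.0202, voom). Slc43a2 averaged 4.56 ± 0.295 FPKM in sedentary libraries and 3.77 ± 0.260 in control libraries (SD, n = 3 each), an adjusted p of 0.130. Locus 2163 on chromosome 6, 47438587 to 47439347, resembled TARBP2, a partner of Dicer in the loading of small RNAs, and had 84.5, 85.6 and 94.0 FPKM in sedentary libraries, against 69.6, 67.9 and 58.3 in control libraries. Locus 750 on chromosome 13, 44138800 to 44144331, had 3.43, 3.96 and 2.69 FPKM in sedentary libraries and 1.92, 1.92 and 1.90 in control libraries. Their groups did not overlap, and their adjusted p were 0.0389 and 0.0202. Loci 478 and 2163 lost the call when replicate 1 or 3 of either group was left out, and locus 750 in each of these cases but that of sedentary replicate 3.

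The fourth, locus 609, behaved unlike the other 3. This locus of 405 bases on chromosome 12, 55781500 to 55783516, resembled a regulatory B subunit of the protein phosphatase 2A and had 16.7, 16.1 and 19.3 FPKM in sedentary libraries, against 0.378, 0.0867 and 18.5 in control libraries. Control replicates 1 and 2 were near 0, and control replicate 3 lay within the sedentary range, so the groups overlapped. Voom gave a log2 fold change of 4.07 ± 0.79 (SE, n = 3 per group; adjusted p = 0.0202), and the call was lost without control replicate 1 and without sedentary replicate 3 (adjusted p up to 0.137). Limma on FPKM did not call it with all libraries (adjusted p = 0.233) and did without control replicate 3 (adjusted p = 0.000442).

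**Figure D3:**
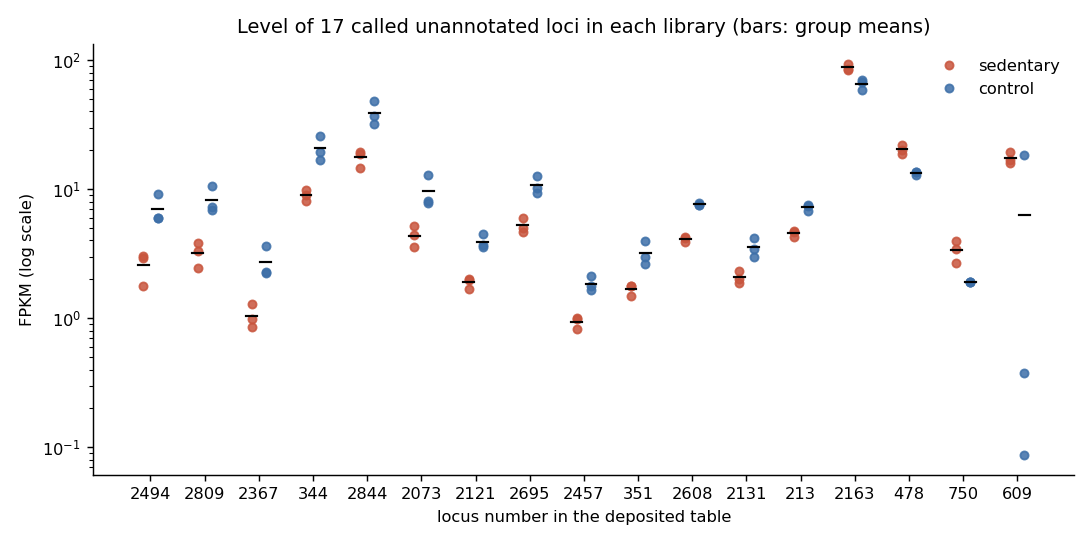
FPKM (y axis, log scale) in each library for 17 called loci, named by their number on the x axis, with sedentary libraries left of control libraries and a bar at each group mean. In the 13 loci from 2494 to 213 all sedentary values lie below all control values and in loci 2163, 478 and 750 above them, while in locus 609 the control value of 18.5 FPKM lies within the sedentary range.

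Sorted by the table's protein similarity, 31 of the 83 lower calls fell in 4 repeat and multicopy families, which were grouped after the values had been seen. Loci like sperm motility kinases gave 7 lower calls of 13, LINE-1-like loci 15 of 64, retrovirus-like loci 5 of 52 and loci like dynein axonemal heavy chain 7 gave 4 of 33, with 0 higher calls in the 4 families. Among these lower calls, loci 241 and 2161 had passed the level filter through the control libraries alone. Zinc finger-like loci gave 0 of 20, loci like other proteins 4 lower and 2 higher of 316, and loci with no similarity 48 lower and 2 higher of 2223. Without the 4 families, 52 of 2559 members were called lower, or 2.03%. The share of lower calls over all 19201 tested genes was 1.12%. On FPKM none of the 162 family members was called by limma, where 80 were lower and 3 higher at an unadjusted p under 0.05. Over all 19201 tested genes these numbers were 1394 and 1947. Reads from such loci can map to several places, how the authors treated them is not given in the sources used here, and so single loci within a family are uncertain.

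Sperm motility kinases (Smok) are testis-expressed protein kinases of the mouse, known from the t complex, where a variant of one changes the transmission of sperm. All 13 loci had a log2 fold change below 0, from -1.66 to -0.40 with a median of -0.89. In 12 of the 13 the groups did not overlap, where 10.8% of all tested genes were lower without overlap. The lowest fold change was that of locus 241, which passed the level filter through the control libraries alone, so its groups cannot overlap. Without this locus the other 12 ranged from -1.37 to -0.40 with a median of -0.78 and 6 calls. Summed over the 13 loci, the level was 25.7, 23.9 and 25.4 FPKM in sedentary libraries, against 39.8, 39.6 and 53.1 in control libraries. Control replicate 3 stood highest, and the other 2 control libraries were also above all sedentary libraries. Locus 2809, on an unplaced scaffold and like the putative kinase W, had 3.82, 2.47 and 3.34 FPKM in sedentary libraries, against 6.89, 7.28 and 10.7 in control libraries. Its log2 fold change was -1.37 ± 0.18 (SE, n = 3 per group; adjusted p = 0.00139, voom), and it was called in all 6 fits that leave out a library. So was locus 351 on chromosome 10, 90406843 to 90463023, with 1.77, 1.49 and 1.79 FPKM in sedentary libraries, against 2.96, 2.63 and 3.998 in control libraries (adjusted p = 0.00487). Locus 1682 on chromosome 2, 160281222 to 160288726, had 3.30, 3.27 and 3.15 FPKM in sedentary and 5.36, 5.24 and 9.13 in control libraries (adjusted p = 0.0146, and 0.103 without sedentary replicate 3). The other 4 called were loci 120, 241, 666 and 2011. Without control replicate 3 or 1 or sedentary replicate 3, 3 of the 13 were called, and without sedentary replicate 1, 4.

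Annotated genes of the table with the same similarity numbered 10. Of these 9 lay below 0 and 1 was called lower, a gene on chromosome 2 listed as MGP_C57BL6NJ_G0027062, with 43.4, 39.8 and 47.6 FPKM in sedentary libraries, against 73.2, 69.6 and 83.1 in control libraries (adjusted p = 0.00101, voom). Their median log2 fold change was -0.32.

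LINE-1 elements encode ORF2, the reverse transcriptase of the most active mobile element of the mouse genome. Of the 64 LINE-1-like loci, 52 had a log2 fold change below 0, with a median of -0.51. Their summed level was 277, 293 and 263 FPKM in sedentary libraries, against 322, 309 and 380 in control libraries, and the groups did not overlap. Locus 2161 is among the 52 and was called lower. It passed the level filter through the control libraries alone, which fixed its direction. Locus 2457, a block of 11630 bases on the minus strand of chromosome 8, 11268569 to 11280198, had 0.990, 0.821 and 0.9997 FPKM in sedentary libraries, against 1.77, 1.64 and 2.12 in control libraries. The log2 fold change was -0.98 ± 0.13 (SE, n = 3 per group; adjusted p = 0.00156, voom), and the call held in all 6 fits that leave out a library, with adjusted p up to 0.0251. Locus 2367 on chromosome 8, 19229390 to 19237457, had 1.30, 0.981 and 0.857 FPKM in sedentary libraries, against 2.26, 2.24 and 3.64 in control libraries, and held its call in all 6 as well (adjusted p = 0.00278 with all libraries). Locus 828, a block of 12645 bases on chromosome 14, had 0.522, 0.671 and 0.530 FPKM in sedentary and 1.28, 1.03 and 2.25 in control libraries (adjusted p = 0.0071, and 0.0938 without sedentary replicate 3). In 36 of the 64 loci control replicate 3 was the highest library, and without it 5 were called. Without sedentary replicate 1 or 3, 5 and 2 were called, and the family median stayed between -0.55 and -0.37 in the 6 fits. Of 24 annotated genes with LINE-1 similarity 0 were called, with a median of -0.10.

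Of the 52 retrovirus-like loci, 42 lay below 0 with a median of -0.33, and their summed level was 153, 152 and 154 FPKM in sedentary libraries, against 175, 171 and 193 in control libraries. Locus 213 on chromosome 10, 62111425 to 62115669, resembled the Pol protein of an intracisternal A-particle, a retrovirus-like element of rodents, and ends 1 base from the end of Slc29a3, a nucleoside transporter. It had 4.63, 4.27 and 4.78 FPKM in sedentary libraries, against 7.44, 6.75 and 7.53 in control libraries, with a log2 fold change of -0.67 ± 0.11 (SE, n = 3 per group; adjusted p = 0.00728, voom), and stayed called in all 6 fits. Slc29a3 had 4.54, 3.89 and 5.14 FPKM in sedentary libraries, against 5.35, 6.51 and 8.03 in control libraries (adjusted p = 0.0674). Locus 818, a block of 15486 bases on chromosome 14, had 1.36, 1.22 and 1.02 FPKM in sedentary and 2.09, 2.29 and 3.89 in control libraries (adjusted p = 0.00452, and 0.0768 without sedentary replicate 3). Without control replicate 3 or sedentary replicate 1, 2 of the 52 were called, without sedentary replicate 3 it was 1, without control replicate 1 it was 3, and without control replicate 2 it was 11.

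**Figure D4:**
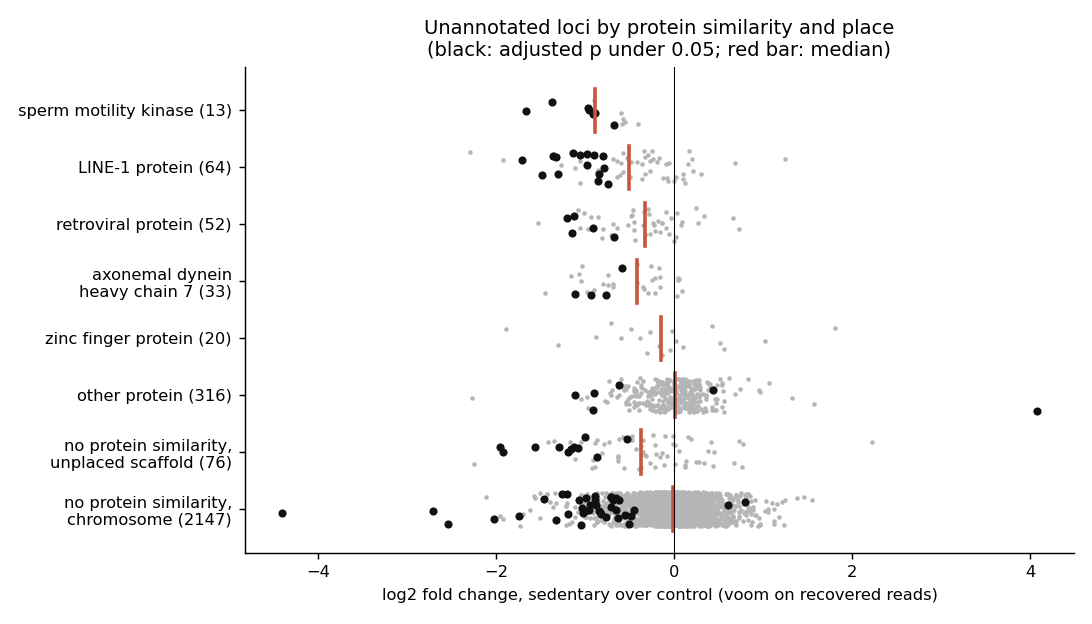
Log2 fold change of sedentary over control libraries on reads (x axis) for every member, grouped by protein similarity and place (y axis, number of loci in brackets), with called loci in black, others in grey and a red bar at each median. The medians of the sperm motility kinase, LINE-1, retroviral and dynein groups lie at -0.89, -0.51, -0.33 and -0.42, and those of loci like other proteins and of loci with no similarity on chromosomes lie near 0.

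Dynein axonemal heavy chain 7 is a motor subunit of the inner arms of the sperm tail axoneme. Of the 33 loci that resemble it, 31 lie in 3 arrays on chromosome 1, and whether those of an array are pieces of 1 transcript was not tested. A first plus-strand array holds 11 loci at 47061077 to 47465982, a second plus-strand array holds 11 at 47508749 to 48068436, and a minus-strand array holds 9 at 55116745 to 55460404. The division into arrays was made after the values had been seen. Levels were higher toward the 3′ end of each array. In the first, locus 23 at the 5′ end had 0.953, 1.15 and 0.938 FPKM in sedentary libraries, against 1.84, 2.64 and 4.97 in control libraries. Locus 35 at its 3′ end had 25.9, 27.3 and 27.7 FPKM in sedentary libraries, against 30.7, 24.6 and 23.3 in control libraries, and the groups overlapped.

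Differences between the groups also followed the order of the loci. Over the 5′ part of each array (5 loci, 5 loci and 4 loci) the median log2 fold change was -1.05 in the first, -0.80 in the second and -0.84 in the minus-strand array. Over the 3′ part, of the same number of loci, it was -0.16, -0.17 and -0.19. Spearman's rank correlation between order and log2 fold change was 0.918 over 11 loci, 0.982 over 11 loci and 0.867 over 9 loci, given as a description, since the loci of an array share their libraries and change level along the same order. Of the 4 called loci, 37, 40 and 134 lay in the 5′ parts and locus 130 in the middle of the minus-strand array. Locus 37 had 3.67, 3.02 and 2.85 FPKM in sedentary libraries, against 5.97, 5.77 and 9.17 in control libraries (adjusted p = 0.00487, voom, and 0.0709 without sedentary replicate 3). Without control replicate 3, 1 of the 33 was called, without sedentary replicate 3, 0, and without control replicate 2, 11.

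In reads, the ratio of the 5′ part to the 3′ part of the first array was 0.0531, 0.0557 and 0.0408 in sedentary libraries, against 0.0737, 0.0884 and 0.152 in control libraries. The second array gave 1.27, 1.22 and 1.11 in sedentary libraries, against 1.60, 1.59 and 2.84 in control libraries. The minus-strand array gave 0.119, 0.0915 and 0.0823 in sedentary libraries, against 0.130, 0.132 and 0.209 in control libraries. In each array all sedentary ratios lay below all control ratios, and control replicate 3 had the highest. This ratio moved with the groups and with that library. Its part in the other differences of long loci was not tested. Of 9 annotated axonemal heavy chain genes in the table, all 9 had a log2 fold change below 0, from -0.40 to -0.04, and 1 was called lower. Dnah8 had 84.7, 81.0 and 79.2 FPKM in sedentary libraries, against 87.8, 89.5 and 88.1 in control libraries, an adjusted p of 0.388. Dnah12, the 1 called, had 11.8, 11.5 and 10.2 FPKM in sedentary libraries, against 14.3, 13.7 and 16.3 in control libraries, an adjusted p of 0.0370.

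**Figure D5:**
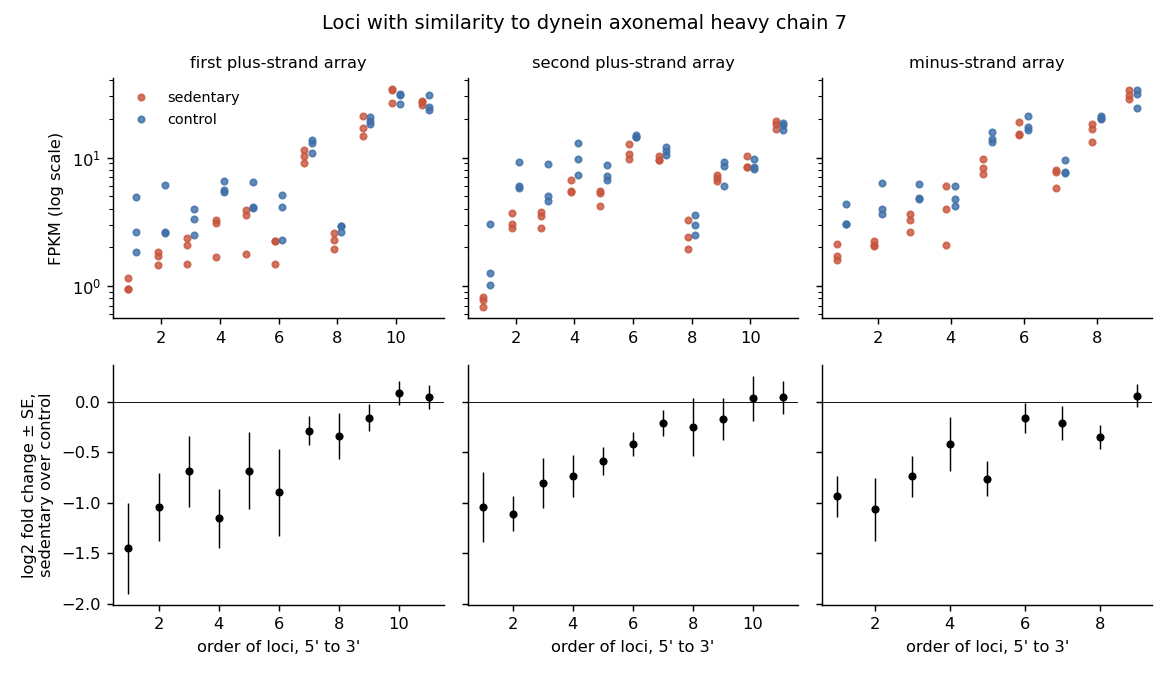
FPKM in each library (top row, log scale; sedentary points left of control points) and log2 fold change with its standard error (bottom row) of the loci in 3 dynein arrays, ordered 5′ to 3′ on the x axis. In each array the fold change climbs from about 1 unit below 0 at the 5′ end to near 0 at the 3′ end.

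Most lower calls were long loci. In the longest 25% of members, above 1521 bases, 58 of 680 were called lower, or 8.53%, against 1.12% of all tested genes. The median log2 fold change of the 680 was -0.13. The 58 include loci 241, 2161 and 2804, which passed the level filter through the control libraries alone. The other 3 classes of the same size gave 7 of 682, 6 of 679 and 12 of 680, from short to long. LincRNA genes in the same longest range gave 3 of 254 lower with a median of -0.03, and protein-coding genes gave 109 of 11236 with a median of 0.01. Without the 4 families, 31 of 607 of the longest loci were called. The longest member, locus 911, had 1.53, 1.49 and 1.61 FPKM in sedentary libraries, against 2.21, 2.00 and 3.03 in control libraries (adjusted p = 0.0245, voom). It lost its call, with adjusted p up to 0.111, when replicate 1 or 3 of either group was left out. In the same length class, the lower calls were 18 without control replicate 3, 33 without control replicate 1 and 93 without control replicate 2. They were 18 without sedentary replicate 1 and 11 without sedentary replicate 3. With the length trend of each library removed, 54 of the 680 were called lower.

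Unplaced scaffolds, pieces of sequence with no set place on a chromosome, held 150 members. They gave 18 lower and 0 higher calls, or 12% lower, against 1.12% of all tested genes. The median log2 fold change was -0.22, and 101 of the 150 lay below 0. Without the 4 families, 12 of 134 were called lower. Locus 2804, among the 18, had passed the level filter through the control libraries alone. Locus 2844, of 423 bases and with no protein similarity, had 14.5, 19.4 and 18.8 FPKM in sedentary libraries, against 31.9, 37.0 and 48.3 in control libraries. Its log2 fold change was -1.13 ± 0.16 (SE, n = 3 per group; adjusted p = 0.00278, voom), and it was called in all 6 fits that leave out a library. Locus 2745 had 4.57, 3.31 and 4.07 FPKM in sedentary libraries, against 8.03, 8.09 and 11.2 in control libraries (adjusted p = 0.0121, and 0.0768 without sedentary replicate 3). In 46.0% of the scaffold loci control replicate 3 was the highest library. Without it 5 were called lower, and without control replicate 1, sedentary replicate 1 or sedentary replicate 3 it was 11, 7 and 2.

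Among chromosomes with at least 1 called member, chromosome 6 gave 8 lower calls of 96 loci and chromosomes 1 and 8 gave 8 each, of 171 and 165. Chromosomes 16, 18 and 19 gave 0 calls of 97, 91 and 84 loci. Over all tested genes 1.12% were called lower. The counts of the chromosomes were not tested against each other.

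Lower loci also lay near one another, which was looked for after their values were seen. Of the 65 lower loci on chromosomes, 23 had another lower locus within 200000 bases, or 35.4%, while 4.98% of the 2571 members on chromosomes lay that close to one. On chromosome 9, a stretch from 119797676 to 119971842 held 4 lower loci among 6 members, all 6 with a log2 fold change below 0 and a median of -0.84. The 4 are 2694, 2695, 2608 and 2697, and the stretch had 0 annotated genes that passed the filter. Locus 2694 overlaps locus 2695 on the same strand and had 10.1, 12.95 and 10.3 FPKM in sedentary libraries, against 17.7, 14.8 and 14.8 in control libraries (adjusted p = 0.0443, voom). Locus 2697, farther along, had 1.12, 0.906 and 1.18 FPKM in sedentary libraries and 1.75, 2.43 and 3.59 in control libraries (adjusted p = 0.0443). On chromosome 8, the 3 members at 72219510 to 72306253 were all called lower, namely the loci 2408 and 2497 described before and locus 2494 between them. Locus 2494 had 3.06, 1.78 and 2.91 FPKM in sedentary libraries, against 5.93, 5.97 and 9.21 in control libraries, with a log2 fold change of -1.46 ± 0.22 (SE, n = 3 per group; adjusted p = 0.00343, voom). On chromosome 6, locus 2120 at 59424471 to 59426531 is followed by locus 2121 at 59426618 to 59428705 on the plus strand. Locus 2120 had 4.07, 4.30 and 5.11 FPKM in sedentary libraries, against 7.31, 6.50 and 8.22 in control libraries, and locus 2121 had 1.68, 2.03 and 1.97 in sedentary libraries, against 3.70, 3.54 and 4.48 in control libraries. Their adjusted p in voom were 0.0190 and 0.00702, and whether such neighbours are pieces of 1 transcript was not tested. Of the 6 fits that leave out a library, 3 called locus 2120, and 2 each called loci 2694 and 2697. In all, 10 such groups of lower loci were found, 2 of them in the dynein arrays.

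Of the 392 divergent loci, 4 were called lower (1.02%) and 1 higher (0.255%), and their median log2 fold change was 0.01. These shares were near those of all tested genes, at 1.12% lower and 0.318% higher. The 4 lower calls are loci 1347, 1797, 2253 and the LINE-1-like 2367. Locus 2253, on chromosome 7 at 78503360 to 78505892, starts 114 bases from the lincRNA gene Gm10619, whose window held 1 CG. It had 1.40, 1.52 and 1.499 FPKM in sedentary libraries, against 3.02, 3.07 and 5.57 in control libraries, and the groups did not overlap. The log2 fold change was -1.33 ± 0.26 (SE, n = 3 per group; adjusted p = 0.0202, voom, and up to 0.113 without sedentary replicate 1 or 3 or control replicate 3). Gm10619 had 1.52, 1.77 and 1.48 FPKM in sedentary libraries, against 2.05, 1.75 and 2.29 in control libraries, an adjusted p of 0.166. Locus 1797 on chromosome 3, 92078498 to 92086271, starts 88 bases from Arhgef2 and had 1.14, 1.17 and 0.899 FPKM in sedentary libraries, against 1.51, 1.49 and 1.96 in control libraries (adjusted p = 0.0433). Arhgef2 averaged 43.3 ± 4.78 FPKM in sedentary libraries and 40.5 ± 3.79 in control libraries (SD, n = 3 each; adjusted p = 0.602).

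Across loci, the fold change of a locus was set beside that of its nearest annotated neighbour. Pearson's r was 0.137 over 374 divergent pairs, 0.0209 where the neighbour was protein-coding (320 pairs), and 0.0700 over 778 pairs farther apart. Tail-to-tail pairs within 5000 bases gave 0.476 over 85 pairs, and 67.1% of them had the same sign, against 54.3% of the divergent pairs. Loci downstream of a gene on its strand gave 0.247 over 80 pairs. Locus and neighbour come from the same libraries, and tail-to-tail or downstream reads can belong to an unrecorded end of the neighbour, so these are descriptions. Between locus and neighbour the levels themselves gave an r of 0.0450 for divergent pairs.

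Some lists of cell type markers of the testis moved with the groups in the same libraries. Of 10 Sertoli cell markers 10 had a log2 fold change above 0 and 2 were called higher in voom, and their summed level was 445 to 509 FPKM in sedentary libraries and 347 to 377 in control libraries. All 8 spermatid markers lay above 0, with 2 called higher and summed levels of 30760 to 33220 FPKM in sedentary and 23920 to 28410 in control libraries. Of 9 spermatocyte markers 8 lay below 0 and 2 were called lower. Their summed levels were 2930 to 3074 FPKM in sedentary and 2777 to 3039 in control libraries. These sums overlapped, with the range higher in sedentary libraries, and so did not follow the sign of the single markers. Of 8 Leydig cell markers 7 lay below 0, with 1 called lower. Their summed levels overlapped, at 960 to 1386 FPKM in sedentary and 1082 to 1532 in control libraries. All 5 peritubular markers lay below 0, at 29.5 to 41.7 FPKM in sedentary libraries and 44.5 to 62.3 in control libraries. No marker was called for round spermatids (2 of 4 above 0), spermatogonia (5 of 8) or macrophages (2 of 4), and the summed levels of these lists overlapped between the groups. Of 8 epididymis markers 3 passed the filter, all 3 above 0, and 2 were at 0 in all libraries. The summed level of that list was 595 to 648 FPKM in sedentary and 558 to 578 in control libraries. The other markers of the list stayed under the level filter, so this sum cannot be read as a level of epididymal RNA. Of 4 endothelial markers 2 passed, both below 0, with sums of 1.78 to 2.18 FPKM in sedentary and 2.50 to 2.86 in control libraries. Of 5 red blood cell markers 2 were in the table and 1 passed, above 0. The sum of that list was 7.04 to 7.59 FPKM in sedentary and 5.33 to 5.68 in control libraries. No marker of these lists was called. The part of these cell types in the differences of the loci was not tested.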

How the data were processed

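The authors deposited 1 table of FPKM values per gene for the 6 libraries, with gene types, lengths, coordinates and protein similarities. HISAT2, StringTie and DESeq2, and the builds mm10 and mm39, are named in the submitters' processing notes, without versions, strandedness or roles. Within a library, all values (100%) were whole multiples of 1 unit once multiplied by gene length (tolerance 0.001), so reads were recovered. Even numbers outnumber odd ones among low reads, so 2 reads may stand for 1 molecule.

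The main test was limma's moderated test with an intensity trend (limma 3.58.1, R 4.3.3) on log2(FPKM + 0.5), which understates folds of low loci. Beside it limma's voom was run on the recovered reads, with the library totals implied by the table. Both tests are two-sided and cover all 19201 genes that reach 0.5 FPKM in 3 or more libraries, adjusted by Benjamini-Hochberg with a threshold of 0.05. Fold changes are sedentary over control, and those cited without a scale are from voom. Both fits were also run on simulated reads with known changes. Those reads had no shift of single libraries, so that run cannot speak for false calls in these libraries.

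Positions come from the table's own coordinates. Divergent means head to head within 1000 bases, and near within 5000. Of 29609 symbols shared with GENCODE M21, 29560 lay on the same chromosome and 0 had the same start. The members, gene lists and tests were chosen with earlier results of these data known. Named loci are those called on FPKM, the 10 largest called folds on reads in each direction with groups apart, the highest, longest and shortest, the highest of each position and those at the level limit. Families, scaffolds, arrays, divergent calls, locus 609, loci called with any library left out and neighbouring called loci were added after their values were seen. Chromosome 18 loci are counted and not named.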

Additional observations from a re-analysis of the deposited data

How the results depend on the processing

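On reads, the 87 called loci became 216 with sample weights (47 higher, 169 lower) and between 15 and 156 with 1 library left out; 7 other settings gave 68 to 111. On FPKM, the 1 called locus became 0 with the length trend of each library removed, with no filter and with models of at least 300 bases, 7 with sample weights, and 0 to 1 with 1 library left out. The replicate block gave 0 loci on FPKM and 111 on reads. With the summed recovered reads as library totals, voom called 104 members lower and 3 higher. The median log2 fold change of the members on reads was then -0.11, against -0.03 with the implied totals. Same-numbered samples did not deviate together (correlations -0.0674, -0.0875 and -0.0346). Weak correlations cannot show whether the numbers mark a pairing in the design. The median log2 fold change, -0.03, was -0.12 with TPM scaling, which moved the median of all genes to -0.09, and lay between -0.0601 and -0.0035 with 1 library left out. With quantile normalization it was -0.0029. The correlation of divergent loci with their neighbours, 0.137, was 0.0209 for protein-coding neighbours. Of the loci followed singly, none changed sign under any setting, and on reads 182 of their 1051 values lost a call and 15 gained one. Fits with DESeq2, edgeR or TMM were not run. The cause of these shifts was not tested.

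Family counts were added after the values were seen: sample weights gave 24 LINE-1-like and 8 retrovirus-like lower calls, and the block or summed totals gave 8 and 7 dynein-like ones. Medians of the 4 families stayed below 0 in each setting run. With 3 libraries a group, few reads per locus and GC content not analysed here, small changes of low loci cannot be resolved.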
